A study of Homo sapiens with 6 samples.

Results

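The 33 genes described here encode the machinery that shortens, decaps and degrades mRNA in the cytoplasm, together with RNA-binding proteins that bring it to its targets. They were chosen by name from a list of decay factors, and all 33 had a row in the deposited table of 25365 rows. RNA-seq had been done on MDA-MB-231, an established triple-negative breast cancer cell line. The 3 si-NRDE2-2 libraries came from cells given 20 nM of 1 siRNA against NRDE2 (Ambion s30064). The 3 si-Control libraries came from cells given 20 nM of a control siRNA (Ambion AM4611). Both groups were transfected with lipofectamine RNAiMAX and harvested after 48 h, so lipofection and an exogenous siRNA are common to both. The comparison asks how the mRNA profile differs when the nuclear protein NRDE2, a partner of the helicase MTREX, is depleted.

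Decay of most cytoplasmic mRNAs begins at the 3′ end, where deadenylases remove the poly(A) tail. PAN2-PAN3 trims long tails and the multi-subunit CCR4-NOT complex removes the rest. DCP2 with its activators then cleaves the 5′ cap, and the exonuclease XRN1 digests the body from the 5′ end. Proteins that bind AU-rich elements (AREs) in 3′ untranslated regions (UTRs), such as ZFP36, recruit this machinery to short-lived mRNAs of cytokines and growth regulators, whereas ELAVL1 is known for stabilising them.

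Values are FPKM (fragments per kilobase of transcript, scaled to the library's fragments), as the authors deposited them. A log2 fold change is that of si-NRDE2-2 over si-Control on the log2(FPKM + 0.1) scale with its standard error (SE), from limma fitted over 11789 genes, and an adjusted p (Benjamini-Hochberg over all of those genes) under 0.05 was called. NRDE2 itself was at 0.230, 0.234 and 0.229 FPKM in the si-NRDE2-2 libraries and at 4.39, 4.45 and 3.80 FPKM in the si-Control libraries (log2 fold change -3.70 ± 0.10, adjusted p = 4.5e-09), so every library matched its label. PSMC1, on the other strand, shares 26.6% of the exon bases of NRDE2. Estimated depth was 39600000 to 50300000 fragments in si-NRDE2-2 and 47700000 to 54400000 in si-Control. At that depth a 2 kb transcript at 1 FPKM rests on 79.1 to 109 fragments. The line's mesenchymal marker VIM was at 1113 FPKM or more in every library, CDH1 at 0.445 FPKM or less, and the hormone receptor genes ESR1 and PGR at 0.00441 FPKM or less. ERBB2, also listed beforehand as a marker that should be low, was at 10.3 to 12.9 FPKM. Of the markers listed for other cell types, PECAM1 was at 0.525 to 1.18 FPKM, and PTPRC and ALB at 0.0730 FPKM or less. Because 1 siRNA was used against NRDE2, effects of NRDE2 loss and other effects of that siRNA cannot be told apart. Bulk RNA likewise does not separate a change in the number of cells that make a transcript from a change in its amount per cell. Nothing states that the replicates were separate cultures, so the p-values measure spread among these libraries alone, and that spread may be technical.

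The deadenylase gene CNOT7 had the largest change of the 33 genes, while shares of the 33 called or without overlap were near those of all tested genes. Of the 33 genes, all of which passed the filter on low values, 3 were higher and 9 lower with si-NRDE2-2 at the called threshold. That is 36.4% of them, against 44.0% of all tested genes (20.9% higher and 23.0% lower). With GC and length trends removed the split was 7 higher and 10 lower, or 51.5% of the 33 genes against 55.5% of all tested genes in that fit. Without si-NRDE2-2 replicate 1, 7 were higher and the called share was 51.5%, against 43.4% of all genes in that fit. Without si-Control replicate 3, 5 were higher. The median log2 fold change of the 33 genes was -0.03, and that of all tested genes was -0.02. The median of the 33 was 0.005 without si-NRDE2-2 replicate 1 and 0.0087 without si-Control replicate 2. The median absolute log2 fold change of the 33 genes was 0.11. That is the size seen for BTG1, and 59.1% of tested genes had a larger one. The groups did not overlap for 19 of the 33 genes (57.6%), 8 of them on the higher and 11 on the lower side, where 53.5% of all tested genes did not overlap (25.2% higher and 28.3% lower). Which of these shares was the larger depended on the libraries. The share called among the 33 genes was below that of all tested genes without si-Control replicate 3 (45.5% and 46.5%), and above it when any of the other 5 libraries was left out.

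**Figure D1:**
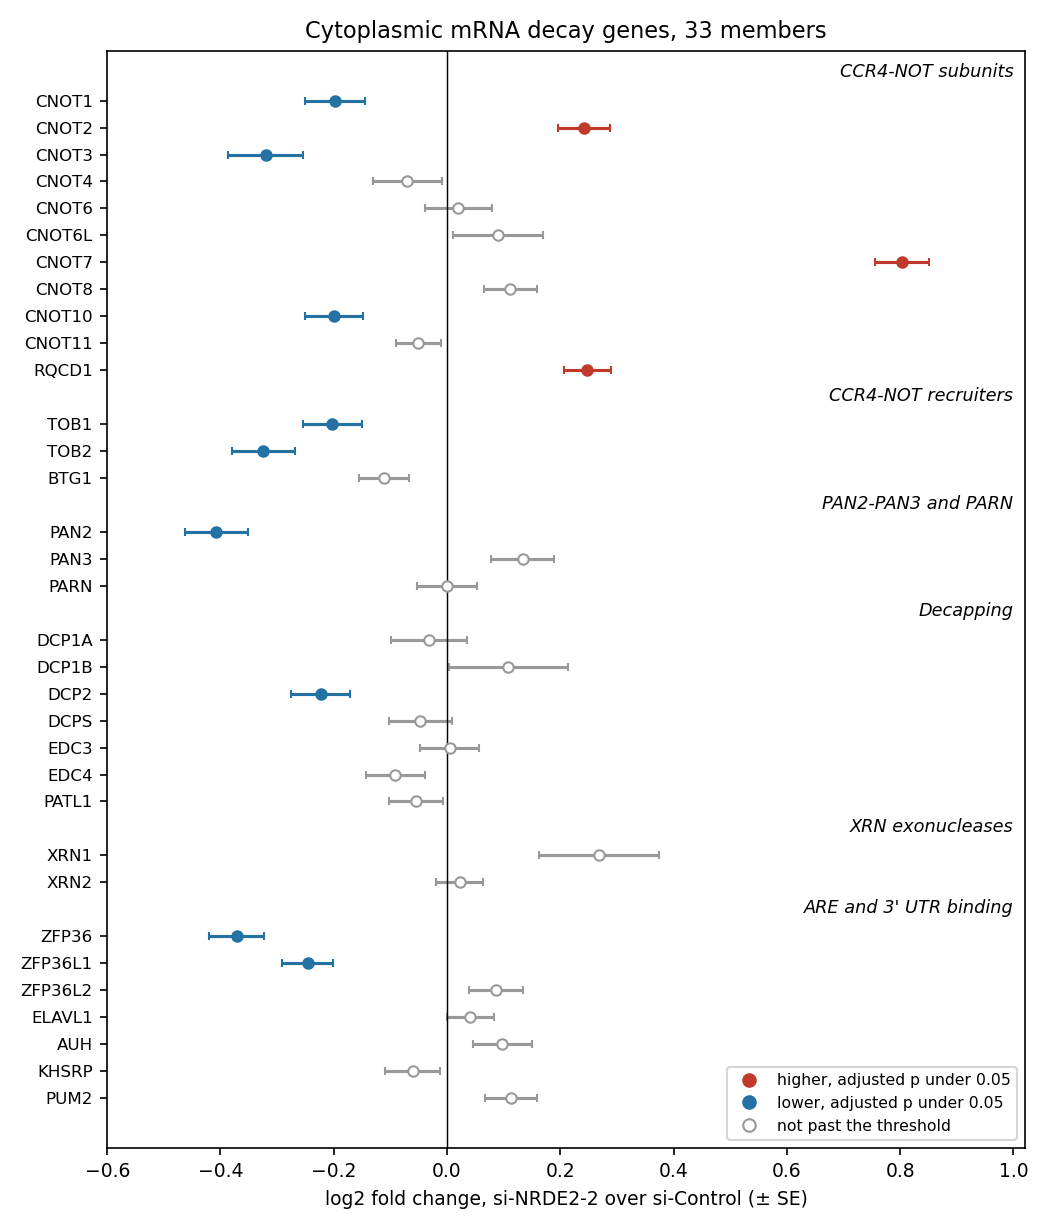
Log2 fold change (± SE, 3 libraries per group) of si-NRDE2-2 over si-Control for each of the 33 genes, by functional group, with filled points past the adjusted p threshold. CNOT7 lies at 0.80, apart from the other 32 genes, which run from PAN2 at -0.41 to XRN1 at 0.27.

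CCR4-NOT carries its deadenylase activity in subunits of 2 families, CNOT6 or CNOT6L and CNOT7 or CNOT8, held on the scaffold CNOT1. CNOT7, the catalytic subunit also called CAF1, was at 32.2, 34.5 and 35.7 FPKM in the si-NRDE2-2 libraries and at 19.6, 19.2 and 19.8 FPKM in the si-Control libraries. The lowest si-NRDE2-2 library lay far above the highest si-Control library. Its mean was 34.2 ± 1.81 FPKM with si-NRDE2-2 and 19.5 ± 0.297 FPKM with si-Control (SD, n = 3 each), or 1.75 times the control level (log2 fold change 0.80 ± 0.05, limma, adjusted p = 4.2e-07). It ranked 153rd of 11789 genes by rise, and 1.68% of tested genes had a larger change in either direction. Over 18 other settings of the fit its log2 fold change ran from 0.72 to 0.84, past the threshold in each. GENCODE 29 names 2 pseudogenes of CNOT7, and VPS37A on the other strand shares 2.22% of its exon bases. Reads shared with these cannot be told apart in a table of FPKM per gene.

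CNOT8, the paralogue that can take the place of CNOT7 in the complex, was at 33.9, 35.3 and 36.7 FPKM with si-NRDE2-2 and at 31.6, 32.4 and 34.0 FPKM with si-Control. Those groups overlapped, and the change of 0.11 ± 0.05 was not called (adjusted p = 0.0740). It was called when si-NRDE2-2 replicate 1 or si-Control replicate 3 was left out and when GC and length trends were removed (adjusted p from 0.0277 to 0.25 over its alternatives). CNOT7 made up 48.7%, 49.4% and 49.4% of the summed CNOT7 and CNOT8 FPKM in the si-NRDE2-2 libraries, against 38.2%, 37.2% and 36.8% in the si-Control libraries. The 2 paralogue transcripts were thus at nearly equal levels per length with si-NRDE2-2, whereas CNOT8 was the more abundant with si-Control. The log2 ratio of CNOT7 over CNOT8 was higher by 0.69 with si-NRDE2-2 in a two-sided exact permutation test (p = 0.10, the smallest that 3 against 3 libraries allow, 0.175 adjusted over 7 pairs).

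The other catalytic pair, the CCR4-type nucleases CNOT6 and CNOT6L, was not called. CNOT6 was at 12.5, 13.2 and 14.3 FPKM with si-NRDE2-2 and at 13.6, 13.4 and 12.4 FPKM with si-Control (log2 fold change 0.02 ± 0.06). CNOT6L was at 3.46, 4.06 and 4.21 FPKM with si-NRDE2-2 and at 3.85, 3.58 and 3.54 FPKM with si-Control (0.09 ± 0.08). Its log2 fold change was 0.17 without si-NRDE2-2 replicate 1, the library with the lowest value, and ran from 0.03 to 0.17 over its alternatives, not called in any. In both genes the groups overlapped, and CNOT6 made up a mean of 77.4% of the pair with si-NRDE2-2 and 78.2% with si-Control (two-sided exact permutation p = 0.3, 0.35 adjusted over 7 pairs). Summed over the 4 catalytic subunit genes, the level was 82.1, 87.1 and 90.9 FPKM with si-NRDE2-2 and 68.7, 68.6 and 69.7 FPKM with si-Control. CNOT7 held 39.2% to 39.6% of that sum with si-NRDE2-2 and 28% to 28.5% with si-Control.

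The non-catalytic subunits moved in both directions by smaller amounts. CNOT2, which pairs with CNOT3 in the module that docks regulators on the complex, was at 18.8, 20.0 and 20.3 FPKM with si-NRDE2-2 and at 16.3, 16.8 and 16.8 FPKM with si-Control. It rose by 0.24 ± 0.05 (adjusted p = 0.00164). CNOT3 was at 18.6, 16.5 and 15.5 FPKM with si-NRDE2-2 and at 21.2, 22.1 and 20.0 FPKM with si-Control. It fell by 0.32 ± 0.07 on the log2 scale (adjusted p = 0.00254), so these 2 partner transcripts moved in opposite directions, with no overlap of the groups in either. RQCD1, the older symbol of CNOT9, encodes a subunit that contacts adaptor proteins. It was at 18.3, 17.9 and 17.9 FPKM with si-NRDE2-2 and at 15.4, 15.1 and 15.1 FPKM with si-Control, and rose by 0.25 ± 0.04 (adjusted p = 7.4e-04).

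The scaffold gene CNOT1 was at 26.04, 27.2 and 27.5 FPKM with si-NRDE2-2 and at 32.2, 32.0 and 28.7 FPKM with si-Control. SETD6 and an unnamed locus on the other strand share 11.2% of its exon bases, and LENG1 7.97% of those of CNOT3. CNOT1 fell by 0.20 ± 0.05 on the log2 scale (adjusted p = 0.0105), a call that was lost without si-Control replicate 2 (adjusted p = 0.0547, range 2.3e-04 to 0.0547 over its alternatives). CNOT10, which binds CNOT11 at the N-terminal end of CNOT1, was at 9.07, 9.48 and 8.77 FPKM with si-NRDE2-2 and at 10.2, 10.6 and 10.6 FPKM with si-Control (-0.20 ± 0.05, adjusted p = 0.00836). CNOT11 had log2 fold change -0.05 ± 0.04 and CNOT4, an E3 ubiquitin ligase that is loosely held by the complex in human cells, -0.07 ± 0.06, and neither was called. Of the 11 subunit genes 3 were higher, 3 lower and 5 not called, so that 54.5% were called, against 44.0% of all tested genes (20.9% higher and 23.0% lower). Summed over all 11 the level was 202, 208 and 211 FPKM with si-NRDE2-2 and 195, 196 and 192 FPKM with si-Control. This sum includes CNOT7, with means of 34.2 FPKM for si-NRDE2-2 and 19.5 FPKM for si-Control. The mean of CNOT7 alone rose by more FPKM than the mean of the sum.

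TOB1, TOB2 and BTG1 are antiproliferative proteins that bind the CNOT7 or CNOT8 subunit and bring the complex to poly(A)-bound mRNAs. All 3 transcripts had non-overlapping groups with si-NRDE2-2 on the lower side, and 2 were called, where 28.3% of all tested genes did not overlap on the lower side and 23.0% were called lower. TOB2 was at 7.62, 7.44 and 7.07 FPKM with si-NRDE2-2 and at 9.18, 9.68 and 8.92 FPKM with si-Control (-0.32 ± 0.06, adjusted p = 7.7e-04). TOB1 was at 7.39, 7.06 and 7.06 FPKM with si-NRDE2-2 and at 7.997, 8.34 and 8.46 FPKM with si-Control (-0.20 ± 0.05, adjusted p = 0.00881), and TOB1-AS1 faces 11.1% of its exon bases. TOB1 made up a mean of 49.3% of the pair's FPKM with si-NRDE2-2 and 47.2% with si-Control (two-sided exact permutation p = 0.10, 0.175 adjusted over 7 pairs). The groups were barely apart, with the lowest si-NRDE2-2 library at 48.70% and the highest si-Control library at 48.68%. BTG1 was at 30.5, 29.6 and 30.0 FPKM with si-NRDE2-2 and at 31.4, 31.9 and 34.0 FPKM with si-Control. Its log2 fold change of -0.11 ± 0.04 missed the threshold (adjusted p = 0.0627, range 0.0283 to 0.195), and passed it after scaling to the same FPKM total, after quantile normalization and after removal of GC and length trends.

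**Figure D2:**
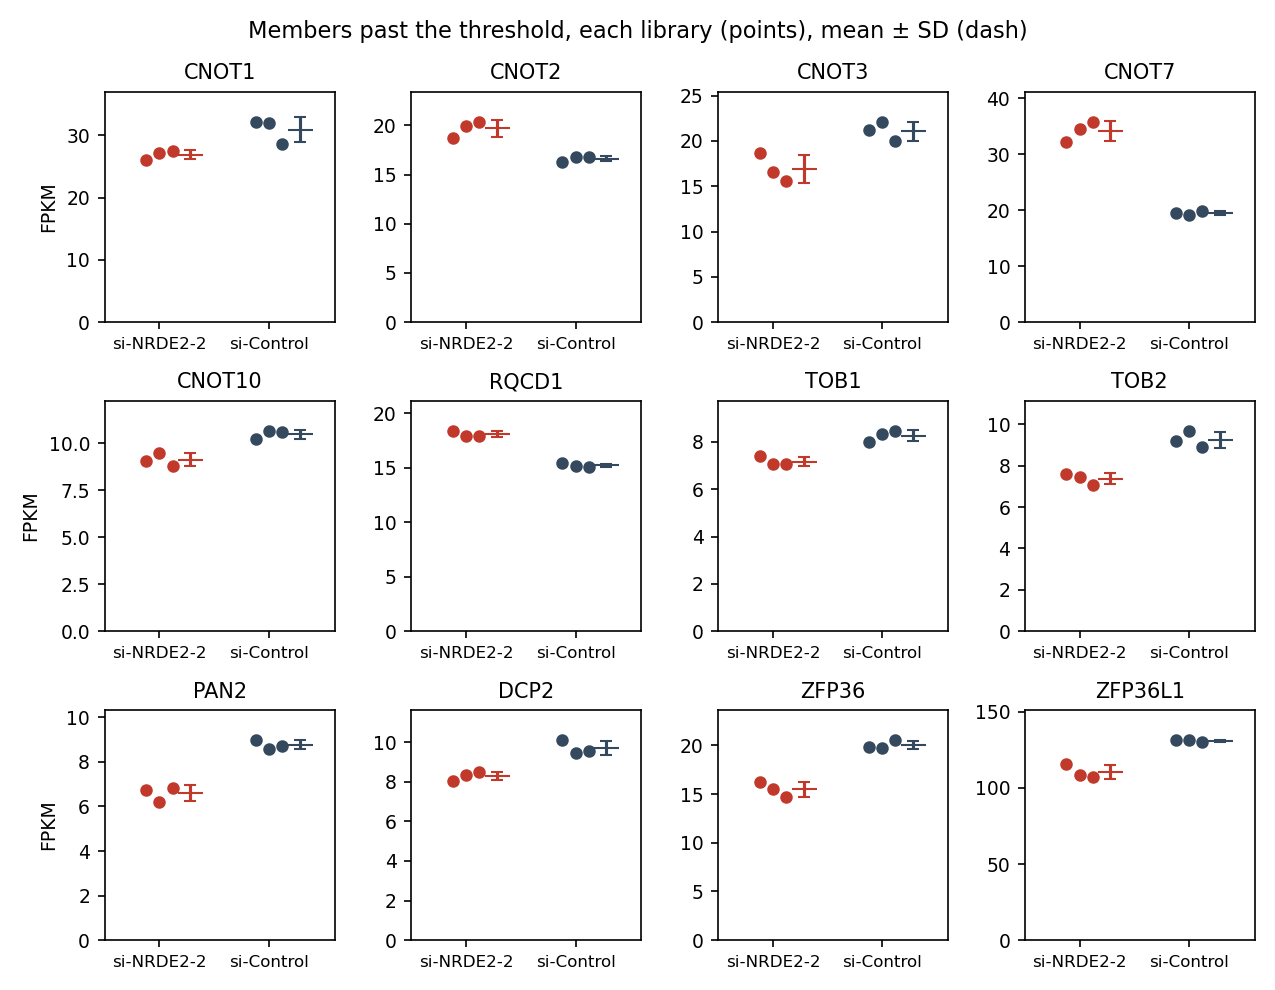
FPKM in each library (points) with mean ± SD (dash, n = 3) for the 12 called genes, with si-NRDE2-2 on the left of each panel and the axis from 0. CNOT7 has the widest gap for its level, 32.2 to 35.7 FPKM with si-NRDE2-2 and 19.2 to 19.8 FPKM with si-Control.

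Among the other deadenylases, PAN2 had the largest fall of the 33 genes. PAN2 is the nuclease of the PAN2-PAN3 complex. Its transcript was at 6.76, 6.19 and 6.83 FPKM with si-NRDE2-2 and at 8.98, 8.59 and 8.73 FPKM with si-Control. The groups were well apart, with means of 6.59 ± 0.353 FPKM for si-NRDE2-2 and 8.77 ± 0.198 FPKM for si-Control (SD, n = 3 each), 0.752 times the control level (-0.41 ± 0.06, adjusted p = 1.9e-04). The gene lies on chromosome 12 at 56316223 to 56334053 on the minus strand in GENCODE 29 (GRCh38), where CNPY2 shares 1.56% of its exon bases on the same strand.

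PAN3, the RNA-binding partner that recruits PAN2, was on the higher side without reaching the threshold. It was at 9.09, 9.92 and 10.1 FPKM with si-NRDE2-2 and at 9.004, 8.92 and 8.58 FPKM with si-Control (0.13 ± 0.06, adjusted p = 0.0729). It passed the threshold without si-NRDE2-2 replicate 1 and with GC and length trends removed, within a range of adjusted p from 0.0156 to 0.232. PAN2 made up 42.6%, 38.4% and 40.3% of the pair's FPKM with si-NRDE2-2, against 49.9%, 49.1% and 50.4% with si-Control. Their log2 ratio differed by -0.55 (two-sided exact permutation p = 0.10, the smallest possible, 0.175 adjusted over 7 pairs). PARN, a cap-stimulated poly(A) ribonuclease best known for trimming non-coding RNAs, was at 6.93, 7.37 and 6.90 FPKM with si-NRDE2-2 and at 6.94, 7.14 and 7.11 FPKM with si-Control, a log2 fold change of 0.0007 ± 0.053 that was not called.

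**Figure D3:**
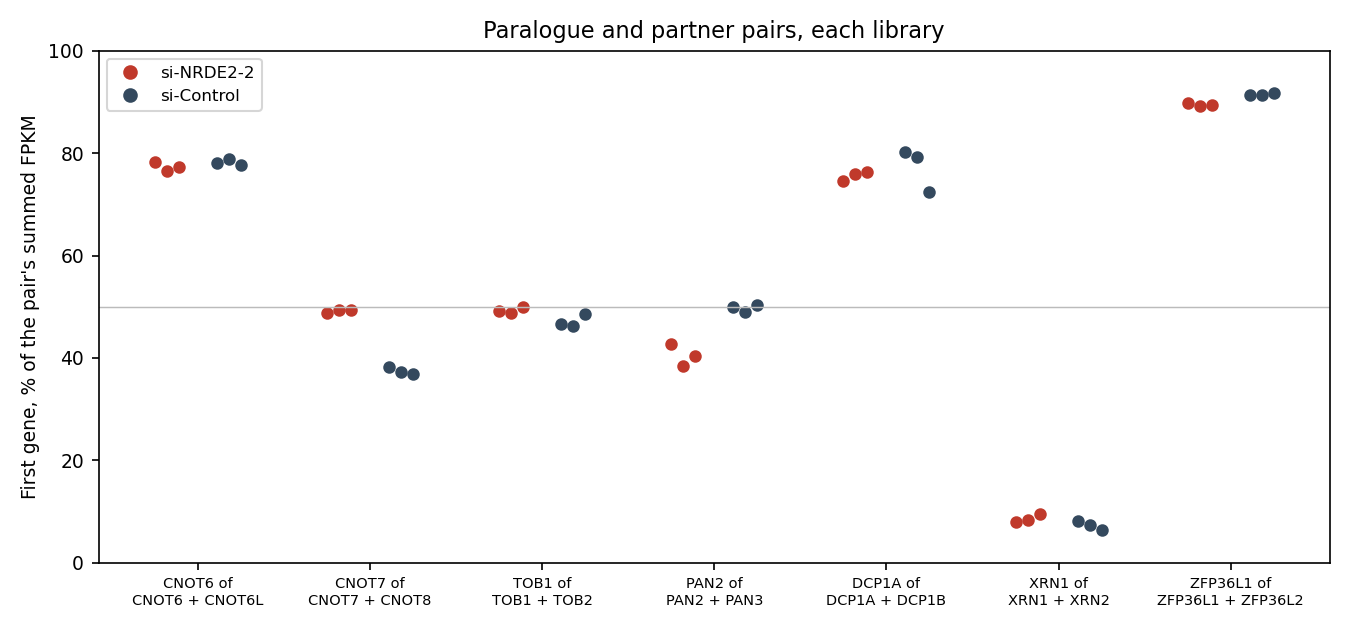
Share of the first gene in the summed FPKM of 7 pairs of genes, in each library (points), with si-NRDE2-2 left of si-Control in each pair. CNOT7 is at 48.7% to 49.4% with si-NRDE2-2 and 36.8% to 38.2% with si-Control, while PAN2 is at 38.4% to 42.6% with si-NRDE2-2 and 49.1% to 50.4% with si-Control.

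Of the 7 decapping genes, 1 was called (14.3%, against 44.0% of all tested genes). DCP2, the enzyme that cleaves the cap, was at 8.06, 8.34 and 8.48 FPKM with si-NRDE2-2 and at 10.1, 9.46 and 9.53 FPKM with si-Control, without overlap. It fell by 0.22 ± 0.05 on the log2 scale (adjusted p = 0.00496). Its cofactor DCP1A was at 7.64, 8.40 and 8.12 FPKM with si-NRDE2-2 and at 8.37, 8.85 and 7.52 FPKM with si-Control, and the paralogue DCP1B at 2.59, 2.66 and 2.53 FPKM with si-NRDE2-2 and at 2.07, 2.32 and 2.87 FPKM with si-Control. Both overlapped between the groups, at log2 fold changes of -0.03 ± 0.07 and 0.11 ± 0.10, and among the si-Control libraries the one with the lowest DCP1A had the highest DCP1B. The log2 ratio of DCP1A over DCP1B differed by -0.15 (two-sided exact permutation p = 0.5, also after adjustment over 7 pairs). DCP1B was called without that library, si-Control replicate 3 (0.23, adjusted p = 0.0374, range 0.0374 to 0.961).

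The enhancers of decapping EDC3 and EDC4 had log2 fold changes of 0.0046 ± 0.052 and -0.09 ± 0.05, and PATL1, which links deadenylation to decapping, -0.05 ± 0.05. PATL1 was at 41.9, 41.3 and 41.4 FPKM with si-NRDE2-2 and at 44.2, 45.0 and 40.3 FPKM with si-Control, several times the level per length of DCP2. DCPS, the scavenger enzyme that breaks down the cap left after decay from the 3′ end, had -0.05 ± 0.06. None of these 4 was called, although EDC4 was without si-NRDE2-2 replicate 1 (adjusted p = 0.0413, range 0.0413 to 0.454) and PATL1 without si-Control replicate 3 (adjusted p = 0.0412, range 0.0412 to 0.778). In GENCODE 29, 13.7% of EDC3's exon bases face CLK3 on the other strand and 21.2% of EDC4's overlap an unnamed locus on its own strand. Whether strand was used when the FPKM were made is unstated in the sources used.

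XRN1, the cytoplasmic 5′ to 3′ exonuclease, had with DCP1B the largest SE of the 33 genes. It was at 4.23, 4.70 and 5.49 FPKM with si-NRDE2-2 and at 4.43, 4.06 and 3.44 FPKM with si-Control. The groups overlapped, and the log2 fold change of 0.27 ± 0.11 was not called (adjusted p = 0.0607, range 0.0131 to 0.215). It passed the threshold when replicate 1 of either group was left out, after quantile normalization and after removal of GC and length trends. XRN2, its nuclear relative that takes part in transcription termination, was at 49.5, 52.1 and 52.2 FPKM with si-NRDE2-2 and at 50.4, 50.6 and 50.4 FPKM with si-Control (0.02 ± 0.04, not called). XRN1 made up a mean of 8.55% of the pair's FPKM with si-NRDE2-2 and 7.29% with si-Control, and their log2 ratio overlapped between the groups (two-sided exact permutation p = 0.20, 0.28 adjusted over 7 pairs).

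The ARE-binding zinc finger proteins ZFP36 (also called TTP), ZFP36L1 and ZFP36L2 bring CCR4-NOT to ARE mRNAs, and the first 2 were lower with si-NRDE2-2. ZFP36 was at 16.2, 15.6 and 14.7 FPKM with si-NRDE2-2 and at 19.8, 19.8 and 20.6 FPKM with si-Control. Its means were 15.5 ± 0.778 FPKM for si-NRDE2-2 and 20.0 ± 0.449 FPKM for si-Control (SD, n = 3 each), a log2 fold change of -0.37 ± 0.05 (adjusted p = 1.3e-04). ZFP36L1, at the highest level of all 33 genes, was at 116, 109 and 107 FPKM with si-NRDE2-2 and at 131, 131 and 130 FPKM with si-Control (-0.25 ± 0.04, adjusted p = 0.00123). The groups did not overlap for either gene.

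ZFP36L2 did not overlap either but on the higher side, at 13.1, 13.2 and 12.6 FPKM with si-NRDE2-2 and at 12.5, 12.4 and 11.8 FPKM with si-Control. Its log2 fold change of 0.09 ± 0.05 was not called (adjusted p = 0.166, range 0.0224 to 0.382), except with GC and length trends removed. ZFP36L1 made up 89.8%, 89.2% and 89.5% of the FPKM it shares with ZFP36L2 with si-NRDE2-2, against 91.3%, 91.4% and 91.7% with si-Control, and the log2 ratio differed by -0.33 (two-sided exact permutation p = 0.10, 0.175 adjusted over 7 pairs).

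The mRNAs of these 3 genes and of ELAVL1 carry in their own 3′ UTR the 9-base core TTATTTATT that proteins of the ZFP36 family are known to bind. Such a core was found in 4 of the 31 listed genes with a 3′ UTR in the transcript used (12.9%) and in 8.68% of 11009 tested genes, read on the sense strand with copies allowed to overlap. The sites are shown as the places of this letter match, with the core in capitals, 5′ to 3′, from GENCODE 29 transcripts. They lie in the 3′ UTRs at chr19:39409198-39409223 (plus strand), chr14:68788078-68788103 (minus), chr2:43223449-43223474 (minus) and chr19:7961829-7961854 (minus) of GRCh38, in the order given. The processing notes name another build, hg19.
ZFP36: tgacgactTTATTTATTctaatatga
ZFP36L1: ctgttggaTTATTTATTttagaaatt
ZFP36L2: tatttaacTTATTTATTatcttgtga
ELAVL1: ttatgtatTTATTTATTgaagtgtga
Of these 4 transcripts, ZFP36 and ZFP36L1 fell and ZFP36L2 and ELAVL1 were not called. The match is a description of the letters and not a site of measured binding.

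The remaining 4 RNA-binding genes, ELAVL1, KHSRP, AUH and PUM2, were not called. Of the whole group of 7 RNA-binding genes, 6 had groups that did not overlap (85.7%, against 53.5% of all tested genes). Of these 6, 4 were on the higher side (ZFP36L2, ELAVL1, AUH and PUM2), where 25.2% of all tested genes lay without overlap. Only 2 of the 7 were called (28.6%, against 44.0% of all tested genes). ELAVL1, also called HuR, was at 16.8, 17.2 and 17.1 FPKM with si-NRDE2-2 and at 16.4, 16.8 and 16.5 FPKM with si-Control (0.04 ± 0.04). The groups were separated by a margin of less than 0.01 FPKM. KHSRP, which binds AREs and promotes decay, was at 54.9, 56.4 and 54.3 FPKM with si-NRDE2-2 and at 57.9, 60.6 and 54.3 FPKM with si-Control (-0.06 ± 0.05). AUH, a mitochondrial enzyme first described as an ARE-binding protein, had a log2 fold change of 0.10 ± 0.05. PUM2, a Pumilio protein that recruits CCR4-NOT to mRNAs with a UGUA-type site, was at 21.1, 22.4 and 23.0 FPKM with si-NRDE2-2 and at 20.9, 20.5 and 20.0 FPKM with si-Control (0.11 ± 0.05, adjusted p = 0.0709). Its 8-base motif TGTANATA lay in the 3′ UTR of 9 of the 31 genes (29%) and of 27.9% of tested genes, with 4 copies each in CNOT8 and BTG1. PUM2 was called without si-NRDE2-2 replicate 1 (adjusted p = 0.0186, range 0.0186 to 0.242).

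**Figure D4:**
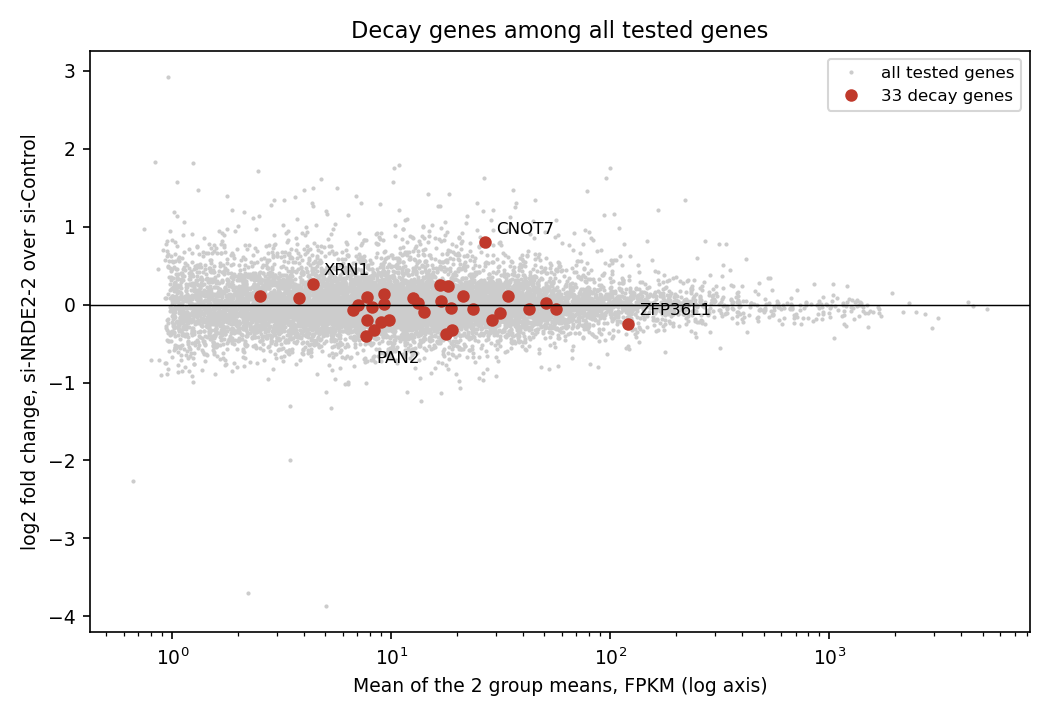
Log2 fold change against mean FPKM (log axis) for 11789 tested genes (grey) and the 33 decay genes (red). ZFP36L1 has the highest level of the 33, CNOT7 lies at 0.80, and the other decay genes lie between -0.41 and 0.27.

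Other factors of cytoplasmic decay were read from a hand-written list of 52 genes, of which 46 were tested, 8 being higher and 10 lower with si-NRDE2-2. That is 39.1%, against 44.0% of all tested genes, and 5 were higher without si-NRDE2-2 replicate 2. The LSM1-7 ring binds shortened poly(A) tails together with PATL1 and activates decapping, and most of its subunits also serve in the nuclear LSM2-8 ring on U6 RNA. LSM3 was at 86.5, 89.9 and 89.9 FPKM with si-NRDE2-2 and at 56.1, 56.2 and 55.4 FPKM with si-Control, 1.59 times the control level (0.67 ± 0.04, adjusted p = 4.9e-07). LSM7 was at 86.3, 83.8 and 83.5 FPKM with si-NRDE2-2 and at 55.5, 56.5 and 60.2 FPKM with si-Control, 1.47 times (0.56 ± 0.05, adjusted p = 4.1e-06). LSM6 rose by 0.22 ± 0.07 (adjusted p = 0.0175). LSM1, the subunit particular to the cytoplasmic ring, and LSM4 and LSM5 were not called (0.06 ± 0.05, 0.10 ± 0.05 and -0.05 ± 0.06), and LSM2 is listed at 0 in every library. LSM1, LSM4, LSM5 and LSM6 are named after their values were seen, to complete the ring.

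Of the same list, YTHDF3, a reader of N6-methyladenosine, rose by 0.66 ± 0.06 (10.6 ± 0.683 FPKM with si-NRDE2-2 and 6.66 ± 0.379 FPKM with si-Control), with an adjusted p of 1.5e-05, and the CCR4-NOT-binding repressor NANOS1 by 0.39 ± 0.08 (adjusted p = 0.00202). Lower were CPEB2, which binds U-rich 3′ UTR elements (-0.41 ± 0.08, adjusted p = 0.00132), the cytoplasmic poly(A)-binding protein gene PABPC1 (-0.24 ± 0.05, adjusted p = 0.00301), the CCR4-like gene ANGEL1 (-0.34 ± 0.07, adjusted p = 0.00351) and the TOB and BTG family gene BTG3 (-0.23 ± 0.05, adjusted p = 0.00367). PABPC1 was at 356, 351 and 333 FPKM with si-NRDE2-2 and at 398, 414 and 411 FPKM with si-Control. The helicase gene DDX6, which joins CCR4-NOT to the decapping factors, had a log2 fold change of 0.01 ± 0.05, and is named after its value was seen.

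Among 32 symbols of mRNAs known for their AREs, 29 were tested, and 14 were higher and 3 lower with si-NRDE2-2. Higher genes thus made up 48.3% of these mRNAs against 20.9% of all tested genes, and the list's median log2 fold change was 0.15. In both directions together 58.6% of the 29 were called, against 44.0% of all tested genes, of which 23.0% were lower. Several of these genes had been described from these libraries before, so the count is no independent evidence. The survival gene MCL1 (0.98 ± 0.04), the cell cycle inhibitor gene CDKN1A (0.70 ± 0.04), the chemokine gene CCL2 (0.77 ± 0.09) and the chemokine gene CXCL8 (0.81 ± 0.10) led by adjusted p. CXCL8 was at 350, 313 and 370 FPKM with si-NRDE2-2 and at 204, 164 and 223 FPKM with si-Control. Its 3′ UTR holds the 9-base core at chr4:73742666-73742691 (GRCh38, plus strand).
CXCL8: gtaaagtaTTATTTATTtgaatctac
MYC (-0.41 ± 0.05), the phosphatase gene DUSP1 (-0.29 ± 0.05) and the cytokine gene IL6 (-0.28 ± 0.10) were lower. IL6 was at 201, 168 and 188 FPKM with si-NRDE2-2 and at 227, 194 and 259 FPKM with si-Control, with overlap. Its call (adjusted p = 0.0344, range 0.00658 to 0.137) was lost in 7 alternatives, 4 of which left out si-NRDE2-2 replicate 2 or 3 or si-Control replicate 1 or 3, and its log2 fold change was -0.18 without si-Control replicate 3. DUSP1 holds the core 2 times in its 3′ UTR, the first at chr5:172768644-172768669 (GRCh38, minus strand), and moved opposite to CXCL8.
DUSP1: gctggtccTTATTTATTtaacttcac
MCL1, CDKN1A, CCL2 and IL6 held 0 copies of the core in the transcript used. IL11 held 6 copies, CXCL2 held 5, and CSF2 and CXCL1 held 3 each, and none of these was called. The cytokine gene IL1B held 2 and was called higher. IL11, CXCL2, CSF2, CXCL1 and IL1B are named after their values were seen. Over all tested genes with a 3′ UTR the median log2 fold change was -0.0028 with the core and -0.015 without it.

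**Figure D5:**
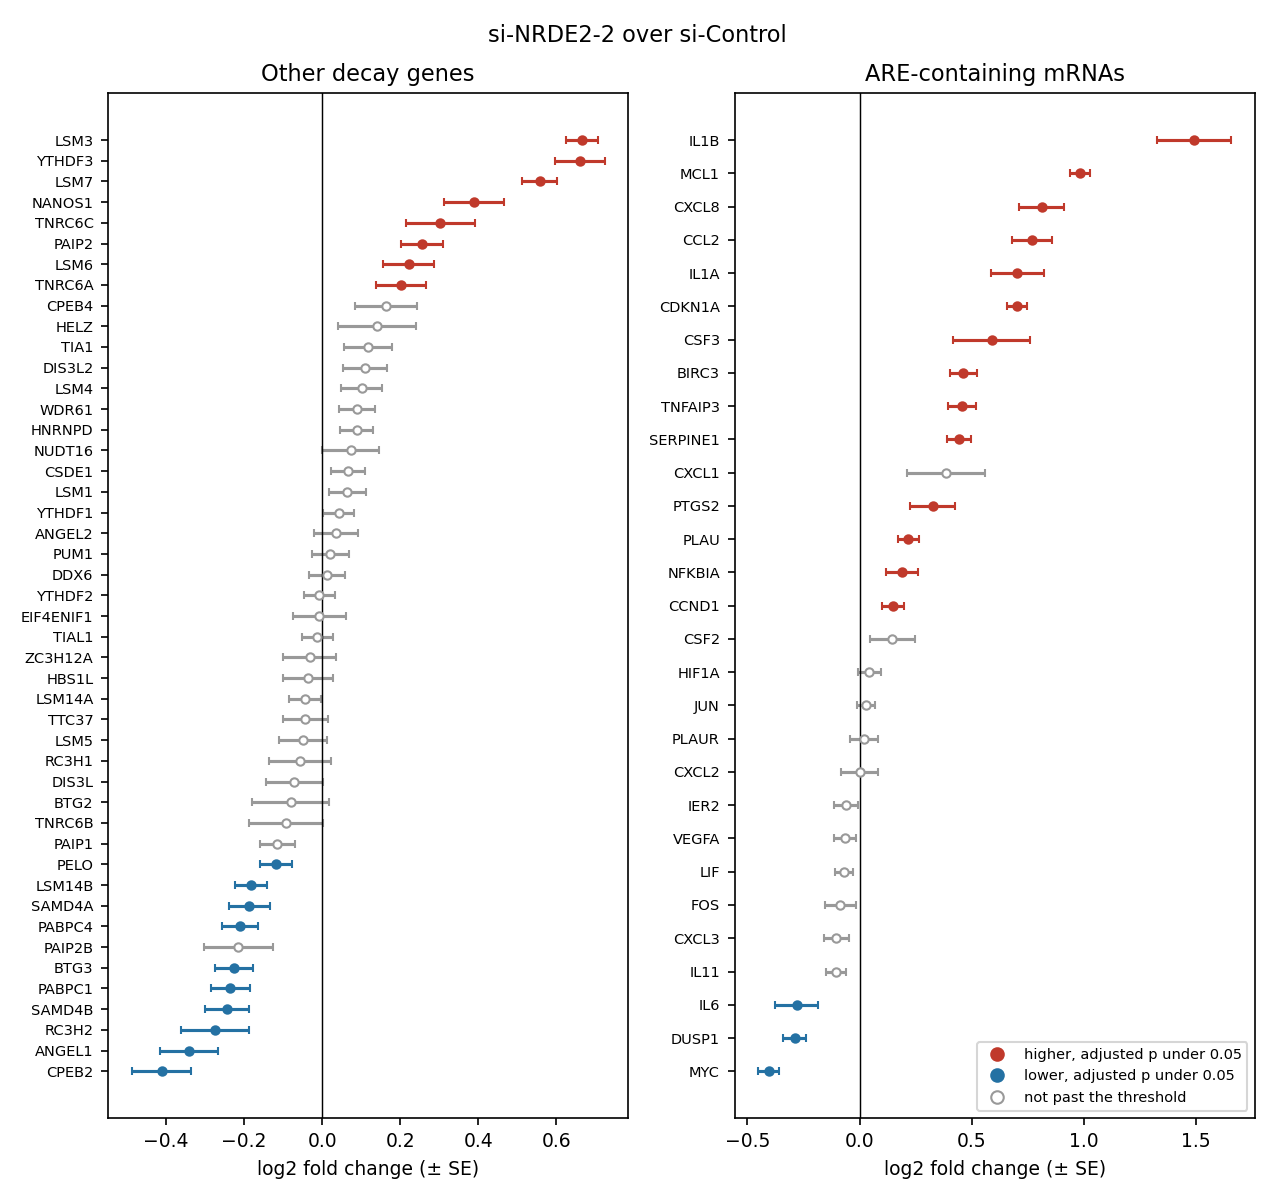
Log2 fold change (± SE, 3 libraries per group) of si-NRDE2-2 over si-Control for 46 other decay genes (left) and 29 ARE-containing mRNAs (right), sorted by value, with filled points past the threshold. LSM3 at 0.67 and CPEB2 at -0.41 end the left panel, and the cytokine gene IL1B at 1.49 and MYC at -0.41 the right one.

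Genes that hold certain short words in the 3′ UTR, read on the sense strand, had a higher median log2 fold change than genes without them. The word GACGTA and its longer relatives, GACAGTA on one hand and GACTGTA on the other, had been picked in earlier work from the fold changes of these same libraries, so their pattern is no independent evidence. At least 1 of them lay in the 3′ UTR of 18% of 11009 tested genes, with a median log2 fold change of 0.09 with a word and -0.03 without one, and a median 3′ UTR of 2822 bases with a word and 867 without. Of the 31 decay genes with a 3′ UTR, 10 (32.3%) held a word, 1 of them called higher and 3 lower. Among all tested genes 20.9% were called higher and 23.0% lower. The median log2 fold change of the decay genes was -0.014 with a word and -0.047 without one. CNOT7 held 5 copies in a 3′ UTR of 5756 bases. At least 5 copies were found in 3 tested genes, the others being PTPN14 (0.98 ± 0.09) and GNAI3 (-0.02 ± 0.05), both named after their values were seen. PTPN14 held 5 copies in a 3′ UTR of 9226 bases, and GNAI3 held 6 in a far longer one of 25999 bases. The part of these words in the rise of CNOT7 was not tested. ZFP36, ZFP36L1 and TOB1, which fell, held 1 copy each. Of the genes that were not called, BTG1 held 2 copies (-0.11 ± 0.04). XRN1 (0.27 ± 0.11), CNOT6L (0.09 ± 0.08), DCP1A (-0.03 ± 0.07), EDC3 (0.0046 ± 0.052) and ZFP36L2 (0.09 ± 0.05), also not called, held 1 copy each. As examples, the sites of ZFP36, ZFP36L1, TOB1 and XRN1 are shown, with the word in capitals. They lie at chr19:39408790-39408815 (plus), chr14:68787975-68788000 (minus), chr17:50862780-50862805 (minus) and chr3:142309801-142309826 (minus) of GRCh38.
ZFP36: gacttggggGACAGTAatcaagtaat
ZFP36L1: aagttctgtGACAGTAcagaaggaaa
TOB1: ttttatactGACTGTAtattttaaag
XRN1: ttaaattgtGACAGTAatgttatatt
CNOT2, RQCD1, CNOT1, CNOT3, CNOT10, TOB2, PAN2 and DCP2, the other called genes among the decay genes, held 0 copies in the transcript used. Of the genes named from the other lists, MCL1, CDKN1A, YTHDF3 and LSM6, which rose, and ANGEL1, which fell, held 1 copy each. LSM3, LSM7, NANOS1, CCL2, CXCL8 and IL1B, which also rose, held 0 copies.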

How the data were processed

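Per the labels' protocols, mirVana RNA went into TruSeq Stranded mRNA libraries. The authors deposited FPKM values per gene and library, which summed to 448986 to 486271. The authors name STAR 2.5.1b, DESeq2 1.10.1 and hg19, per the submitters' processing notes, with no role. The program, annotation and strand setting behind the FPKM are not given in the sources used here. Another 3 columns of values were not used. Columns were matched to samples by the labels' descriptions.

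Genes reaching 1 FPKM in 3 or more libraries were kept and 159 rows of small RNAs were left out. A limma 3.58.1 model (R 4.3.3) was fitted to log2(FPKM + 0.1) of the 11789 genes left (trended, robust prior variance, 2 groups, Benjamini-Hochberg adjustment). The pseudocount understates changes of low genes. The script was tested on simulated data. Paired ratios were tested with scipy 1.17.1 by two-sided exact permutation. Depth was estimated from the FPKM of 1 fragment in genes averaging 0.05 FPKM or less (tolerance 0.02), and its absolute scale from 431 genes (quartiles 43400000 and 56400000 fragments for si-Control replicate 1). Of 25363 symbols 23473 matched GENCODE 29 (GRCh38). It gave 1 transcript per gene, used for length, GC content and 3′ UTRs. A listed 0 can be a failed estimate, since LSM2, SKIV2L, DXO, TNF and IER3 were at 0 in all libraries.

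The genes, lists and tests were chosen with earlier results of these data known. Values in every library are given for called genes and for others whose paralogue or group is described. From the other lists up to 4 called genes in each direction, by adjusted p, are named. Alternatives covered the pseudocount, filter, scaling, prior variance, replicate block, GC and length, and each library left out. Leaving out genes with the 3′ UTR words was added after seeing the data.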

Additional observations from a re-analysis of the deposited data

How the results depend on the processing

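Over 19 alternatives, 224 values of the 12 called decay genes were computed, and 223 kept their direction and call, the exception being CNOT1 without si-Control replicate 2. Another 9 decay genes passed the threshold in some alternative. The count of decay genes called higher was 7 with GC and length trends removed, against 3 in the reported fit, with 10 called lower. It ran from 3 to 7 when single libraries were left out, being 7 without si-NRDE2-2 replicate 1 and 5 without si-Control replicate 3. The count of other decay genes called higher ran from 5 to 9 when single libraries were left out, with 5 without si-NRDE2-2 replicate 2. Of all tested genes, 3877 to 5444 were called with single libraries left out and 6543 with GC and length trends removed, against 5185 reported. The causes were not tested.

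Genes that were not called changed sign around 0. CNOT6 ran from -0.029 to 0.064 with single libraries left out. It was at -0.030 with GC and length trends removed, at -0.029 without si-NRDE2-2 replicate 3 and at -0.023 without si-Control replicate 3. PARN ran up to 0.017 (without si-NRDE2-2 replicate 3). It was at -0.0034 with libraries scaled to the same FPKM total, at -0.0045 with GC and length trends removed, at -0.029 without si-NRDE2-2 replicate 2 and at -0.012 without si-Control replicate 1. DCP1A ran down to -0.096 (without si-Control replicate 3). It was at 0.0050 without si-NRDE2-2 replicate 1 and at 0.020 without si-Control replicate 2. EDC3 ran up to 0.042 (without si-Control replicate 2). It was at -0.0042 without si-Control replicate 1 and at -0.024 without si-Control replicate 3. The 7 paired log2 ratios kept their sign under another pseudocount, with the replicate block and with each library left out.

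Deviations of same-numbered libraries correlated at -0.123, 0.105 and -0.121, and those of differently numbered ones at -0.113 to 0.17. No pairing by number was seen, but 3 libraries per group are too few for these correlations to exclude one. With the replicate number as a block, 12 decay genes were called, 3 higher and 9 lower, and 4686 of all tested genes. With genes that hold a 3′ UTR word left out, 8 of 23 decay genes were called, 2 higher and 6 lower (34.8%, against 41.4% of all genes in that fit). NRDE2 ran from -4.13 to -2.08 over the alternatives that kept it. It was not tested with a mean of at least 5 FPKM, without any 1 si-Control library or with the word genes left out.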
